A study of Mus musculus with 3 samples.

Results

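Exonic circRNA junctions are back-splice junctions that the deposited circRNA table places in the exons of a host gene. All junctions that the table gives the type exon were taken as members, which made 1285 of 1372 junctions, beside 60 intronic and 27 intergenic ones. They belonged to 969 host genes. The libraries were made from RNA of apoptotic bodies (ABs), the membrane-bound fragments shed by dying cells, of 3 stages of osteoclast formation in cells of C57BL/6 mice at 11 weeks of age. BMM-ABs came from bone marrow macrophages grown in M-CSF (50 ng/mL). For pOC-ABs the macrophages were turned into preosteoclasts by M-CSF (30 ng/mL) and RANKL (100 ng/mL) over 24 h, and for mOC-ABs into mature osteoclasts by the same factors over 72 h or more. These doses and times are those of the labels. The methods of the study give M-CSF at 50 ng/mL for osteoclast formation too, and its text names a time later than 72 h for mature osteoclasts. According to the labels all 3 cultures then received alendronate (500 μM) for 12 h to bring on AB formation, whereas the methods of the study name staurosporine as the inducer. The titles of the samples name the cells and the design text of the series names ABs, so the libraries were taken as ABs. Each group had 1 library, so no difference below has a replicate check. The 3 pairs are called G1 (pOC-ABs over BMM-ABs), G2 (mOC-ABs over BMM-ABs) and G3 (mOC-ABs over pOC-ABs). Unless a library is named, 3 values in a row follow the stages, with BMM-ABs first and mOC-ABs last.

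In back-splicing the spliceosome joins the donor at the end of a downstream exon to the acceptor at the start of an upstream exon, and the exon or exons between them close into a ring without a cap or a poly(A) tail. Rings of this kind resist exonucleases that act on RNA ends, and most of them stay in the cytoplasm. Host genes typically yield far more linear mRNA than circular RNA, and a read is assigned to the ring only if it crosses the back-splice junction. The methods describe purification of the RNA on poly-T beads, which capture poly(A) tails, and the part of that step in the values below was not tested.

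The letters across the junction are what tells a circular RNA from its linear counterpart. For the 10 junctions with the most reads, and for most of those with the highest and lowest ratios described below, the last 15 bases of the donor exon are written in lower case and the first 15 bases of the acceptor exon in capitals, 5′ to 3′ on the host strand, read from the GENCODE M21 transcripts (GRCm38).
Asph, chr4:9635901-9639347, minus strand: ccaaagttttattagAGGCAAAGCACGGAG
Tulp4, chr17:6137211-6139156, plus strand: ggccacaacagtgagAGTTGTAAGAGTCCA
Pvt1, chr15:62107148-62107465, plus strand: agctccctctaaaatGTCTGATTTTCTTAA
Gm21992, chr19:4792398-4794009, minus strand: acacagagtttcaagGTAATTGGCGTTCCG
Tcf20, chr15:82851513-82857284, minus strand: atcgccagagagatgGAGGGCTGCTGGCCT
Tcf20, chr15:82825231-82857284, minus strand: gtgccattgacgcagGAGGGCTGCTGGCCT
Tns3, chr11:8478225-8479665, minus strand: tgcacaaaggtcgagGTGATGACCCCATTG
Nfix, chr8:84771784-84772315, minus strand: ttgtccacactccggGATGAGTTCCACCCG
Uck2, chr1:167234692-167237648, minus strand: gtctgtctcgccgagTCTTCCGTTTGTGCT
Bbs9, chr9:22887581-22887996, plus strand: agctcatctctggagGTGGCTGTACTCCAA
Ldha, chr7:46850178-46851058, plus strand: atggcgactccagtgACTACTGTGTAACTG
Ogdh, chr11:6313788-6317080, plus strand: ccacagacaaacttgTCATGGGACATTTTT
Jmjd1c, chr10:67157907-67189849, plus strand: tttcagccataccagGTCTACGTGGAATTT
Arhgap10, chr8:77344640-77365160, minus strand: gaaaaccatgaaaagGTATAAATGACCAAG
Cnot6l, chr5:96128943-96134132, minus strand: ctctaggtttaacagACTAATAGGGATGCC
Runx1, chr16:92668708-92695737, minus strand: cccgagaaccccgaaATGCCAGCACGAGCC
Knl1, chr2:119076936-119081625, plus strand: acaaaagattgacgaCACAGCGTAATAGCC
Tasp1, chr2:140042094-140057499, minus strand: ctggtggaacttgagGTTGACTCCCTTTGC
Dennd1b, chr1:139040000-139062971, plus strand: agcaaattaagcactGAAGTTCTGCAGAGC
Both Tcf20 lines end in the same capitals, since the 2 junctions share an acceptor and differ in the donor exon.

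The members held 9318 junction reads in all. BMM-ABs held 3211 of these reads in 655 junctions, pOC-ABs 2286 reads in 491 junctions and mOC-ABs 3821 reads in 738 junctions. Between 94.1% and 96.1% of all circRNA junction reads of a library were thus exonic. Set against the summed mRNA and lncRNA reads (12734764, 11865332 and 11556957), the members made up 252.1 reads in every 1000000 for BMM-ABs (exact Poisson 95% interval 243.5 to 261), 192.7 for pOC-ABs (184.8 to 200.7) and 330.6 for mOC-ABs (320.2 to 341.3). On the deposited SRPBM scale, which divides the junction reads of a library by 1 constant and is used for all ratios below, the members summed to 290.5 (280.5 to 300.7), 273 (261.9 to 284.4) and 371.3 (359.6 to 383.3). Thus mOC-ABs were highest on both scales, while the intervals of BMM-ABs and pOC-ABs overlapped on the SRPBM scale and not on the other. The intervals cover counting error alone and compare 3 libraries. Most junctions were thinly covered, with a median of 3 reads among those detected in a library and a maximum of 54 to 70. No junction had a single read in any library. The smallest count above 0 was 2, so a listed 0 may stand for 0 or 1 read, and about 34% of the junctions detected in a library (33.4% to 34.5%) sat at that smallest count. Macrophage markers (8 genes) summed to 3333, 1677 and 973.1 FPKM, and osteoclast markers (10 genes, with Calcr at 0 in all 3 libraries and Itgb3 at 0 in mOC-ABs) to 97.4, 191.4 and 685.3. All 7 neutrophil and all 3 erythroid markers were at 0, and the summed markers of B, T, stromal and endothelial cells reached 1.40 FPKM at most.

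Among the most abundant exonic circRNAs, several were carried at nearly one level in the ABs of all 3 stages. The junction with the most reads joined exons 2 and 3 of Asph, which encodes aspartate beta-hydroxylase, in a ring of 219 coding bases, with 55, 50 and 56 reads. The Tulp4 junction had 50, 54 and 50 reads, and that of Gm21992 had 49, 46 and 45. In each of these 3 junctions the ratios of G1, G2 and G3 lay between 0.75 and 1.43, and all of their counting intervals included 1. Neither the Asph nor the Gm21992 junction was listed as a known circRNA, although both were among the 5 junctions with the most reads.

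Another group of junctions had its most reads in BMM-ABs. Exon 2 of Pvt1, a long noncoding RNA next to Myc, formed a ring of 318 bases with 64, 34 and 53 reads. Exon 2 of Tcf20, a transcriptional coregulator, formed a ring of 5772 bases with 63, 35 and 35 reads, and a second ring that added exon 3 had 47, 23 and 44. Nfix, a transcription factor of the nuclear factor I family, had 56, 28 and 34 reads over its exon 2. On the SRPBM scale the second Tcf20 ring was at nearly the same level in mOC-ABs as in BMM-ABs (G2 ratio 1.01, 0.65 to 1.55). Of the comparisons of these 4 junctions with BMM-ABs, only the G2 ratio of the exon 2 ring of Tcf20 (0.60, exact binomial 95% interval 0.38 to 0.92) had an interval without 1.

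At 4 other junctions with many reads some of the counting intervals held no 1. Of these, Bbs9, Uck2 and Ogdh were also picked for extreme ratios, and their intervals make no allowance for that choice. Exons 18 to 20 of Tns3, which encodes tensin 3 of focal adhesions, had 30, 24 and 70 reads. This made mOC-ABs 2.51-fold higher than BMM-ABs (1.61 to 3.98) and 2.37-fold higher than pOC-ABs (1.47 to 3.95). The linear RNA of Tns3 was also highest in mOC-ABs, with 5712, 4753 and 10101 reads. The Bbs9 junction, from a gene of the ciliary BBSome complex, had 9, 12 and 53 reads, 6.33-fold higher in mOC-ABs than in BMM-ABs (3.09 to 14.6) and 3.59-fold higher than in pOC-ABs (1.90 to 7.39). Its linear reads (205, 100 and 137) did not follow that order. Uck2, a uridine-cytidine kinase, had 56, 13 and 41 reads over exons 2 to 4, and its G1 ratio was 0.31 (0.15 to 0.57). Ogdh, a subunit of the oxoglutarate dehydrogenase complex of the citric acid cycle, had 21, 3 and 22 reads, with a G1 ratio of 0.19 (0.036 to 0.63) and a G3 ratio of 5.97 (1.79 to 31.1). The linear reads of Uck2 (5085, 4479 and 6574) and of Ogdh (2952, 2341 and 3148) were lowest in pOC-ABs as well, by less than their junction reads.

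**Figure D1:**
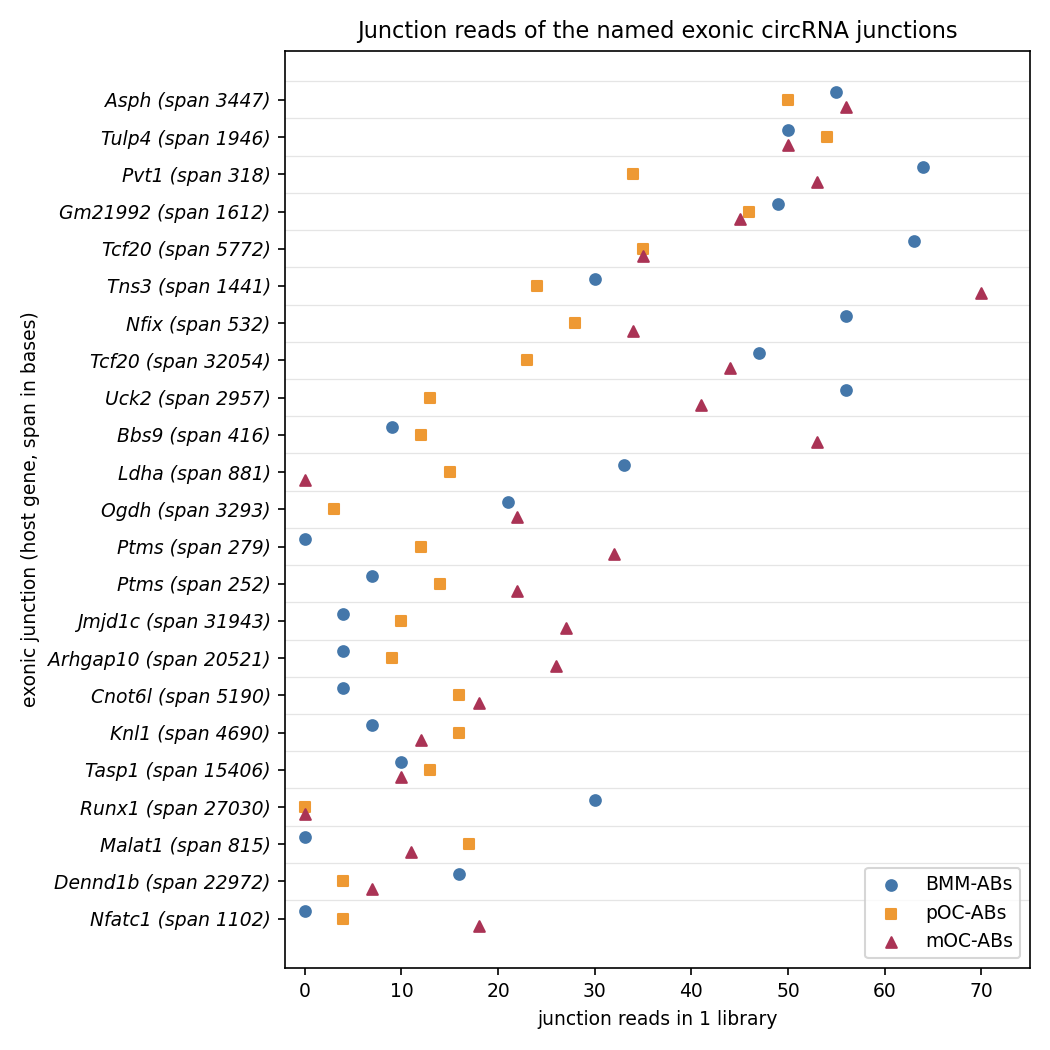
Junction reads in 1 library (x axis) for the exonic junctions with the most reads or the most extreme ratios (y axis, host gene and span in bases), where circles are BMM-ABs, squares pOC-ABs and triangles mOC-ABs, with 1 library each and no error bars. The Asph, Tulp4 and Gm21992 points lie close together at 45 to 56 reads, whereas Bbs9 and Tns3 have their triangle far to the right and Runx1 has 30 reads in BMM-ABs and 0 in the others.

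Across all members, detection in a single library was the rule, as it was among the other circRNA junctions. Of the 1285 junctions, 863 (67.2%, Wilson 95% interval 64.5% to 69.7%) were detected in 1 library, 245 (19.1%) in 2 and 177 (13.8%, 12.0% to 15.8%) in all 3. Of those in 1 library, BMM-ABs held 303, pOC-ABs 191 and mOC-ABs 369, which made 46.3%, 38.9% and 50% of the junctions detected in each. BMM-ABs and mOC-ABs shared 299 junctions, 45.6% of those of BMM-ABs and 40.5% of those of mOC-ABs. The 230 junctions shared by BMM-ABs and pOC-ABs were 35.1% and 46.8% of each list, and the 247 shared by pOC-ABs and mOC-ABs were 50.3% and 33.5%. The 177 junctions in all 3 libraries held 51% of the exonic reads, with a median of 17 summed reads, against a median of 3 for junctions in 1 library. Intronic junctions were in 1 library in 80% of cases (68.2% to 88.2%) and intergenic ones in 77.8% (59.2% to 89.4%). Both intervals overlapped that of the members. Since members make up most circRNA junctions, the share over all of these could hardly differ from theirs.

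Detection followed the number of reads closely. All 429 junctions with 2 summed reads were in 1 library by construction, and none of the 370 with 3 or 4 reads could be in all 3, given the smallest count of 2. Of the 260 junctions with 5 to 9 reads 6.54% were in all 3 libraries, of the 147 with 10 to 19 reads 59.9%, and of the 79 with 20 or more reads 91.1% (72 junctions). The 7 others with 20 or more reads included the largest junction of Runx1, which was the member with the most reads (30) among those of 1 library, the largest of Ldha and that of Nfatc1 with 22 reads. With at least 10 summed reads, 6 of 226 junctions (2.65%) were in 1 library.

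The table names a known circRNA for 357 members (27.8%, 25.4% to 30.3%), and these held 49.6% of the exonic reads. Known members had a median of 6 summed reads and those without a known entry 3. Detection in all 3 libraries reached 31.6% of known members and 6.90% of the others. By reads, 17.2% of members with 2 reads were known, 17.0% with 3 or 4, 36.2% with 5 to 9, 47.6% with 10 to 19 and 70.9% (60.1% to 79.7%) with 20 or more. Within the class of 5 to 9 reads, 43.4% of junctions in 2 or 3 libraries were known (36.2% to 50.8%) against 21.8% of those in 1 (14.4% to 31.6%), with intervals that did not overlap. In the class of 3 or 4 reads the shares were 31.0% (17.3% to 49.2%) and 15.8% (12.3% to 20.1%), and in that of 10 to 19 reads 49.3% (41.2% to 57.4%) and 0 of 5 (0% to 43.5%), with overlapping intervals in both. Read numbers were not matched within these classes. Intronic junctions were known in 15% of cases (8.10% to 26.1%) and intergenic ones in 3.70% (0.66% to 18.3%). Members with many reads and no known entry were Asph (161 summed reads), Gm21992 (140), Ldha (48) and 2 junctions of Ptms (44 and 43).

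**Figure D2:**
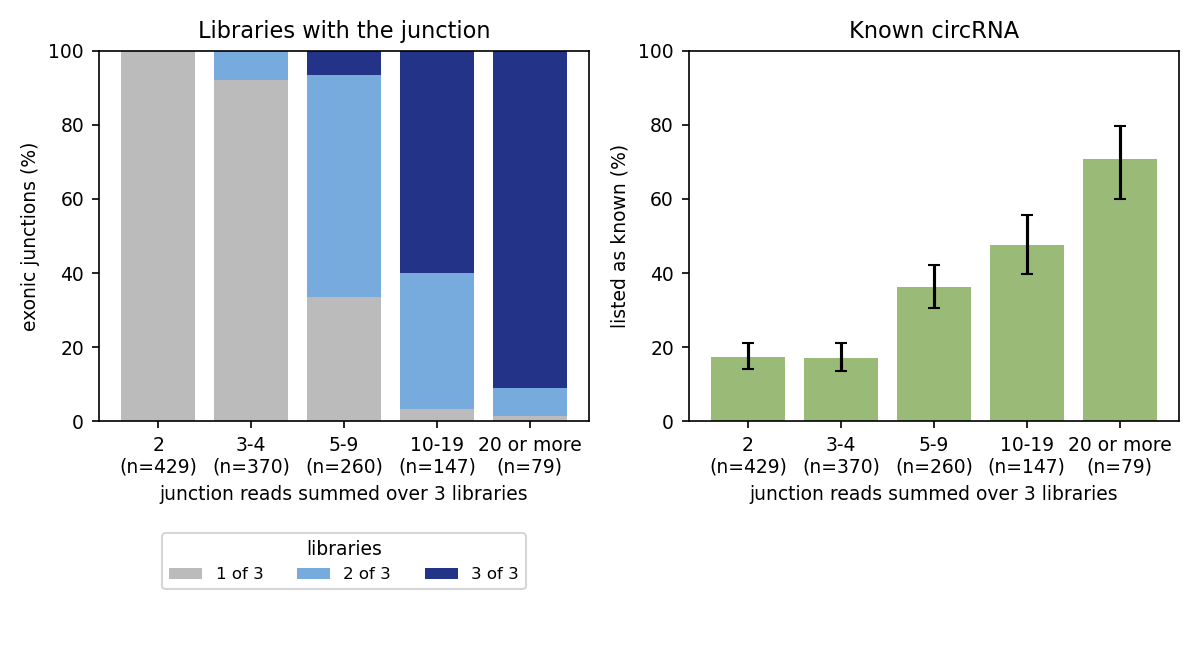
Exonic junctions by their junction reads summed over 3 libraries (x axis): at the left the percentage detected in 1, 2 or all 3 libraries (y axis, stacked bars), at the right the percentage listed as known circRNAs (y axis) with Wilson 95% intervals. The share in all 3 libraries climbs from 0 at 2 to 4 reads to 91.1% at 20 or more, and the known share from 17.2% to 70.9%.

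The span between both ends of a junction on the genome had a median of 5525 bases (95% interval 4933 to 5961) and ran from 138 to 145920 bases, with quartiles of 1834 and 12426. Up to 1000 bases were spanned by 192 junctions, more than 50000 by 21 and more than 100000 by 2. The median span was 5788 bases for junctions in 1 library, 4953 in 2 and 4903 in 3, with overlapping intervals, and 6251 bases for known against 5197 for other members, again with overlap. Of the members with 20 or more reads, the shortest spans were 238 bases at exon 2 of Med13l, a Mediator subunit (16, 5 and 14 reads), and 252 and 279 bases at Ptms. The longest were 82354 bases at Tmem164 (10, 4 and 12 reads), 41421 at the noncoding Lncpint (4, 6 and 13) and 32054 at Tcf20.

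Most members ended on annotated exon ends, which the type exon by which they were taken may already ask for. Both ends fell on annotated exon ends of the right kind and strand in 1196 junctions (93.1%, 91.6% to 94.3%), 1 end in 55 and neither in 34. Of the intronic junctions 2 of 60 had both ends on annotated exon ends, and of the intergenic ones 7 of 27. How the types were assigned is not given, so this contrast may restate them and is no separate result. A single annotated transcript of the host held both ends in 1181 members, and the structure below is that of these. In another 15 both ends were annotated but in different transcripts, as in the large junctions of Tulp4, Gm21992 and Lncpint. Where several transcripts held both ends, a protein-coding, basic and longer transcript was taken, and exon numbers are those of that transcript.

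The typical exonic circle was short and held few exons. A median of 3 exons lay between the ends, with 1 exon in 90 circles (7.62%), 2 in 331, 3 in 296, 4 in 194, 5 in 121 and 6 or more in 149 (12.6%). The exons, taken as fully spliced, summed to a median of 422 bases (402 to 441) with quartiles of 312 and 615, and reads across the junction do not show whether introns between them were kept. Circles of 1 exon used long exons, with a median of 534 bases (423 to 667), whereas circles of several exons had a median of 126.5 bases per exon (123 to 130). Single-exon circles included the exon 2 circles of the kinase genes Hipk3 (1099 bases, 7, 4 and 11 reads) and Hipk2 (1084 bases, 3, 3 and 9 reads) and of the zinc finger gene Zfp609 (874 bases, 6, 3 and 6 reads). The longest circle, 5916 bases of Tcf20 exons 2 to 4, had 5 reads, and the one with the most exons, 21 exons of the nuclear pore gene Nup155, had 2.

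Exon 2 was the usual first exon of a circle. The acceptor lay at exon 2 in 483 of 1181 members (40.9%, 38.1% to 43.7%) and at exon 3 in 145 (12.3%), while exon 2 made up 5.93% of all exons from the second on in the 926 transcripts used. The acceptor lay at exon 1 in 3 members and the donor at the last exon in 1. Sequence inside the coding region made up the whole circle in 930 members (78.7%), coding sequence and UTR in 235 (19.9%) and UTR alone in 7, while 9 came from transcripts without a coding region. The last base before the donor was G in 79.9% of members and in 79.7% of the 250183 internal exon ends of the annotation, and the last 2 bases were AG in 56.4% and 54.8%, so the exon letters at the donor resembled those of exon ends in general.

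**Figure D3:**
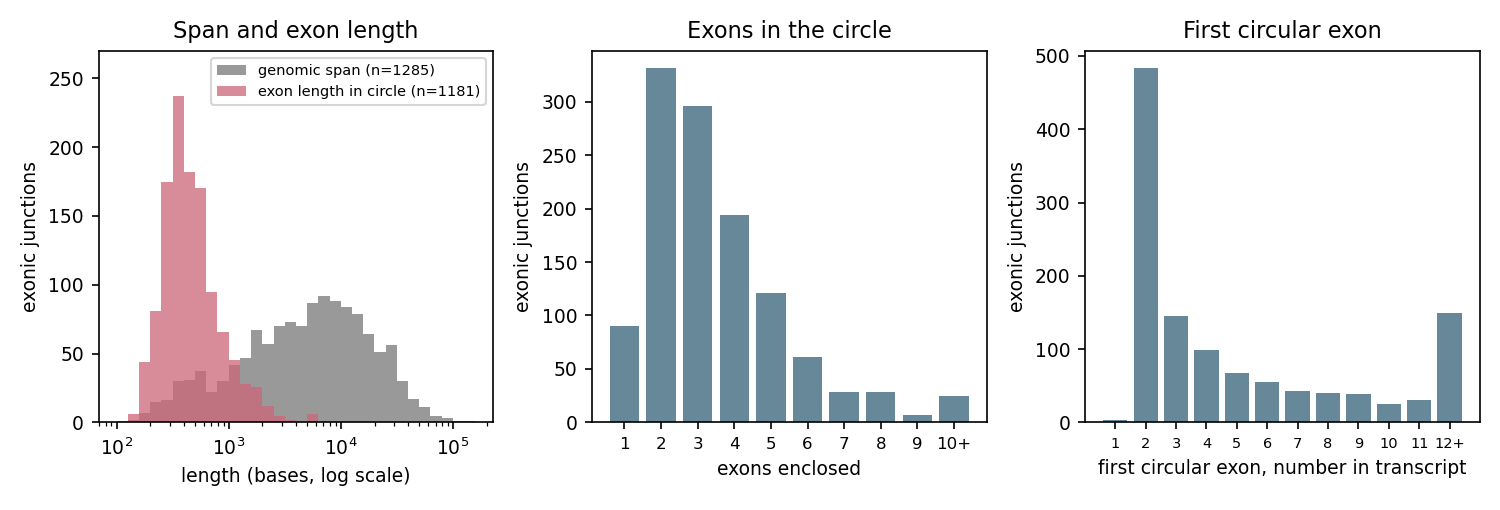
At the left, histograms of genomic span (grey, 1285 junctions) and summed exon length (red, 1181 junctions) on a log axis in bases, with the number of exonic junctions on the y axis; in the middle, junctions by exons enclosed; at the right, junctions by the number of the first circular exon in its transcript. Exon lengths peak near their median of 422 bases while spans spread up to 145920 bases, 2 and 3 are the most frequent exon numbers, and exon 2 is the first exon of 483 circles.

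Most host genes gave 1 junction. A single exonic junction was found for 768 hosts (79.3%), 2 for 133, 3 for 40, 4 for 17 and 5 or more for 11. Of the 201 hosts with several junctions, 132 (65.7%, 58.9% to 71.9%) had at least 2 that shared an end, 90 an acceptor and 66 a donor. The leading junction held a median of 62.5% of the exonic junction reads of such a host. Hosts ranged widely in the junction reads they gave per linear read, with a median of 2.44 junction reads per 1000 linear mRNA reads over 960 hosts with linear reads. Junction reads cross a single site, whereas mRNA reads cover whole transcripts and may include circular RNA of the host. The value is therefore no share of circular RNA.

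Arhgap10, a GTPase activating protein, had the most junctions, 10, with 18, 15 and 60 reads. They fell between exons 2 and 22, and 4 of them lay within exons 14 to 18. The leading junction, exons 14 to 18, had 4, 9 and 26 reads, and a shorter ring of exons 14 to 16 from the same acceptor had 0, 0 and 10. Linear reads of Arhgap10 (1066, 921 and 1633) were also highest in mOC-ABs, but junction reads per 1000 linear reads still differed, at 16.9, 16.3 and 36.7. Asph followed with 7 junctions and 77, 63 and 76 reads, 74.5% of them in the exon 2 to 3 ring. Tns3 had 6 junctions with 42, 32 and 110 reads. Dennd1b, an exchange factor of Rab GTPases, had 5 with 30, 10 and 28 reads, and the largest of them, exons 4 to 9, had 16, 4 and 7.

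Ptms, which encodes parathymosin, had 5 junctions with 10, 30 and 77 reads in all. They shared 1 donor, at the end of exon 4, and none had its acceptor on an annotated exon start. The letters of the 4 largest are given in the order of their reads, with the same donor letters in each.
Ptms, chr6:124914408-124914686, minus strand: actgctgaagaggagGAAGAAGAAACTGCA
Ptms, chr6:124914408-124914659, minus strand: actgctgaagaggagGATGATGATGAAGGG
Ptms, chr6:124914408-124914704, minus strand: actgctgaagaggagAATGGAGCTGAGGAA
Ptms, chr6:124914408-124914710, minus strand: actgctgaagaggagGAGGAGAATGGAGCT
The first of these had 0, 12 and 32 reads, and the second 7, 14 and 22. The third had 3, 0 and 14 and the fourth 0, 0 and 9. The bases just before the acceptor and just before the donor end were identical over 3, 3, 6 and 6 positions in that order, so the place of the join within these bases cannot be read from the sequence. Over the 23 members with an acceptor inside an exon and a donor at an exon end, such identical stretches had a median of 2 bases and a range of 0 to 6. Linear reads of Ptms were 2710, 2718 and 3597.

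**Figure D4:**
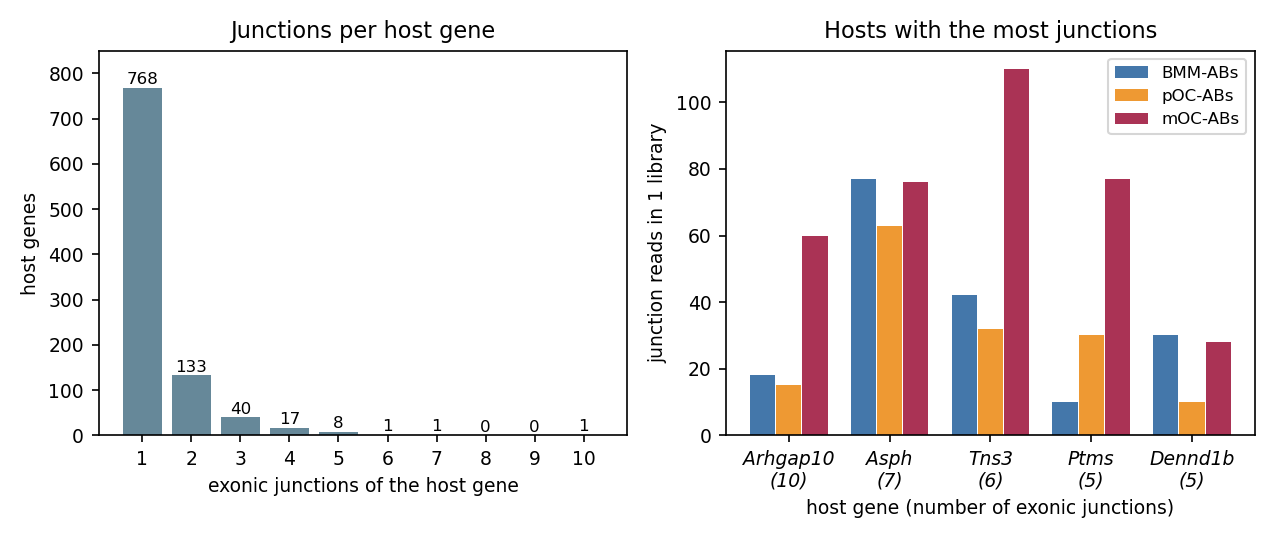
Host genes (y axis, number printed on each bar) by their exonic junctions (x axis) at the left, and at the right the junction reads per library (y axis, 1 bar per library, no replicates) of the 5 hosts with the most junctions, which are named with their number of junctions. Hosts with 1 junction number 768, and Arhgap10, Tns3 and Ptms have their tallest bar in mOC-ABs.

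With any read counted, most members differed over 2-fold between libraries, and most of these did so because 1 library was at 0. In G1, 306 members had a ratio above 2 and 444 one below 0.5 among 916, which together made 81.9% against 82.6% of all circRNA junctions (33.6% above and 49% below), and 686 of the 916 were at 0 in 1 library. In G2 the numbers were 493 and 380 among 1094 (79.8%, against 80.1% of all circRNA junctions, 45% above and 35.1% below), and in G3 536 and 280 among 982 (83.1%, against 83.5%, 54.7% above and 28.9% below). Since exonic junctions make up most of the table, the shares could hardly differ from that background.

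With at least 20 reads in the compared libraries together, far fewer members lay past 2-fold. In G1 there were 3 above and 6 below among 39 (23.1%), against 7.32% above and 17.1% below for all circRNA junctions (24.4% together) and 35% for mRNA transcripts at the same minimum. In G2 there were 12 above and 3 below among 51 (29.4%), against 22.2% above and 7.41% below (29.6% together) and 36.5% for mRNA transcripts. In G3 there were 12 above and 0 below among 45 (26.7%), against 26.1% above and 0% below and 33% for mRNA transcripts. An exact binomial interval without 1 was found as well for 2 of those above and 3 of those below in G1. It was found for 11 above and 3 below in G2, and for 10 above in G3. The median ratio of members with reads in both libraries was 0.82 in G1 (n = 38), 1.12 in G2 (n = 48) and 1.38 in G3 (n = 45). Scaled to circRNA junction reads the medians were 0.89, 0.89 and 1.01, so that of G2 turned below 1, and scaled to mRNA and lncRNA reads they were 0.67, 1.15 and 1.74. Of the 79 members with 20 or more summed reads, 39 stayed within 2-fold in all 3 pairs. The 3 comparisons share libraries, so a low pOC-ABs count enters both G1 and G3.

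Members higher in mOC-ABs than in BMM-ABs included the first Ptms junction, with 0 and 32 reads. This made it 11.5-fold higher against a floor of 3 reads per library, with a lower interval limit of 8.79 for the listed reads. The Jmjd1c junction, exons 2 to 3 of a jumonji domain gene, had 4, 10 and 27 reads and a G2 ratio of 7.25 (2.53 to 28.5), and the leading Arhgap10 junction had a G2 ratio of 6.98 (2.42 to 27.5). The linear reads of Jmjd1c (2399, 1792 and 1874) were lower in mOC-ABs than in BMM-ABs. Cnot6l, a deadenylase of the CCR4-NOT complex, had 4, 16 and 18 reads over exons 2 to 4 and was higher in both osteoclast stages, with a G1 ratio of 5.28 (1.70 to 21.7) and a G2 ratio of 4.83 (1.59 to 19.6). Knl1, a kinetochore gene, had 7, 16 and 12 reads and a G1 ratio of 3.02 (1.17 to 8.67).

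Members lower in pOC-ABs or mOC-ABs than in BMM-ABs were led by Runx1 and Ldha. The ring of Runx1 exons 3 to 5 held 516 coding bases of a transcription factor of blood cell development. It had 30 reads in BMM-ABs and 0 in both others. Against the floor of 3 reads pOC-ABs were 7.58-fold and mOC-ABs 9.31-fold lower. The upper interval limits of the ratios from the listed reads were 0.17 and 0.14. The linear reads of Runx1 were 1788, 777 and 615. Another Runx1 ring, exons 5 to 6, had 7, 0 and 0 reads, whereas the ring of exons 3 to 4 had 0, 0 and 5, from the same acceptor as the leading one. The Ldha junction, exons 4 to 5 of the lactate dehydrogenase A gene, had 33, 15 and 0 reads, while linear Ldha reads stayed between 12213 and 13579. Against the same floor mOC-ABs were 10.2-fold below BMM-ABs and 6.14-fold below pOC-ABs. The upper interval limits of these ratios from the listed reads were 0.13 and 0.23. The leading Dennd1b junction had a G2 ratio of 0.47, with an interval that held 1 (0.16 to 1.21). The lowest G3 ratios among members with at least 20 reads were 0.53 (0.22 to 1.19) for a Malat1 junction with 0, 17 and 11 reads, 0.61 (0.26 to 1.38) for Knl1 and 0.63 (0.25 to 1.55) for Tasp1, and their intervals all held 1.

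**Figure D5:**
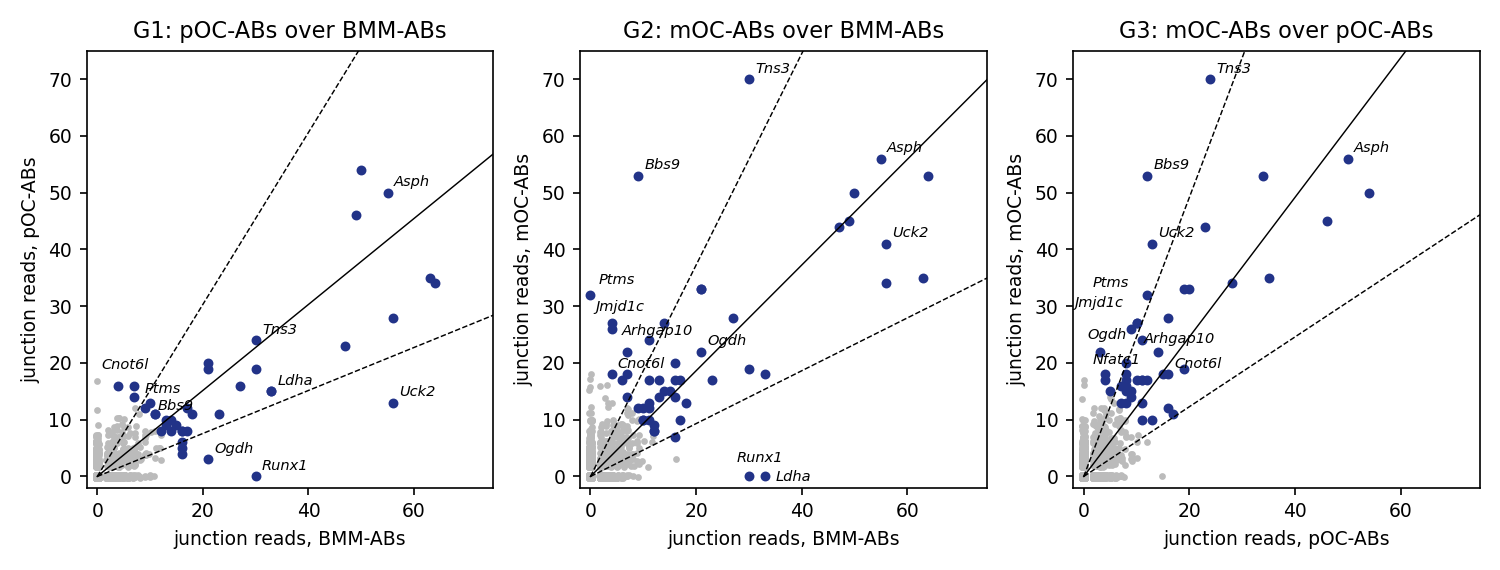
Junction reads of each exonic junction in 1 library (y axis) against another (x axis) for G1, G2 and G3, with members of at least 20 reads in the pair in blue and all others in grey, the latter moved by up to 0.3 reads for visibility; the solid line marks equal SRPBM and the dashed lines 2-fold higher and lower. In G3 no blue point lies below the lower dashed line, and in G2 Bbs9 and Tns3 lie above the upper one while Runx1 and Ldha lie at 0 in mOC-ABs.

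Junctions were also counted by the roles of their hosts. The share of hosts among all expressed genes was not computed, so the numbers of hosts in each list have no background. The median of summed reads was 3 over all members, and in the host lists below it lay between 3 and 10. Of 30 osteoclast genes, 3 were hosts (Nfatc1, Mitf and Plekhm1), with 6 junctions and 3, 7 and 29 reads. Most came from exon 2 of Nfatc1, the transcription factor that drives osteoclast formation, whose ring of 1102 bases had 0, 4 and 18 reads. In mOC-ABs this ring was 6.45-fold higher than in BMM-ABs against the floor of 3 reads (lower interval limit of the listed reads 4.72). It was 3.66-fold higher than in pOC-ABs (1.21 to 14.9). Linear Nfatc1 reads were 2566, 2772 and 8463. A second Nfatc1 ring, exons 2 to 3, had 0, 0 and 7 reads. In G2, 4 junctions of the list were above 2 and 1 below 0.5 among 5, against 45% and 35.1% of all circRNA junctions. Among the 4, the Mitf and Plekhm1 junctions had 0 reads in BMM-ABs and 2 in mOC-ABs, the smallest count above 0. The rest of the 5, with the one below 0.5, were all of Nfatc1. Of 20 macrophage genes, 2 were hosts (Runx1 and Adgre1), with 5 junctions and 48, 3 and 12 reads. Adgre1, which encodes F4/80, had 4, 3 and 4 reads at one junction and 7, 0 and 3 at the other. In G1, 0 junctions of the list were above 2 and 3 below 0.5 among 4, against 33.6% and 49%. The summed macrophage markers were also highest in BMM-ABs and the osteoclast markers highest in mOC-ABs (values above), and their part in these counts was not tested. In such bulk libraries a smaller share of bodies from a cell type and less RNA per body cannot be told apart.

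Of 30 genes known as circRNA hosts in mouse, 18 were hosts, with 31 junctions and 247, 182 and 241 reads, of which 9 junctions were in all 3 libraries and 12 were known. The list was chosen with earlier results of these data known. It includes the hosts of the 3 junctions with the most reads, so its counts are not independent of these data. This list held Asph, Tulp4 and Pvt1, and besides them Fbxw7, a substrate receptor of a ubiquitin ligase (5, 5 and 4 reads), Cdyl (2, 0 and 6) and 4 junctions of Fndc3b. The Fndc3b junctions were split between libraries, with 11, 0 and 2 reads at exons 3 to 4 and 0, 0 and 10 at exons 5 to 7. In G3, 11 junctions of the list were above 2 and 5 below 0.5 among 23, against 54.7% and 28.9%.

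Chromatin and transcription regulators were the list with the most junctions. Of 54 such genes 25 were hosts, with 44 junctions and 250, 127 and 194 reads, led by both Tcf20 rings and including Arid1a (17, 12 and 17 reads), Nsd2 (17, 8 and 10), Med13l and Runx1. Per 1000 exonic junction reads the list held 77.9, 55.6 and 50.8. Tcf20 gave 110, 60 and 82 of its reads and Runx1 37, 0 and 5, so most of this fall rests on these hosts and not on the list as a whole. In G2, 16 junctions were above 2 and 14 below 0.5 among 40, against 45% and 35.1% of all circRNA junctions. Maml3, a Notch coactivator, was highest in pOC-ABs with 4, 10 and 3 reads over its exon 2, and its G3 ratio was 0.24 (0.043 to 0.95).

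Regulators of small GTPases, which steer the actin cytoskeleton and vesicle traffic, gave 19 hosts of 47 genes, with 40 junctions and 93, 68 and 150 reads. Per 1000 exonic junction reads these were 29, 29.8 and 39.3. Arhgap10 gave 10 of the junctions and 18, 15 and 60 of the reads, so the higher share of the list in mOC-ABs rests on this host. In G2, 18 of 36 junctions of the list were above 2 and 11 below 0.5, near the 45% and 35.1% of all circRNA junctions. Rasa2 had 0, 6 and 7 reads, Rapgef6 0, 7 and 5, and Dock5 0, 0 and 7 at its largest junction, so these 3 were listed at 0 in BMM-ABs. Dock8 was highest in pOC-ABs with 3, 9 and 3 reads, and Vav3 had 5, 4 and 9. Ubiquitin ligases and deubiquitinases gave 13 hosts of 39, with 17 junctions and 50, 32 and 57 reads, most of them from exons 2 to 8 of Usp3 (21, 20 and 33). In G2, 5 of these were above 2 and 6 below 0.5 among 16, against 45% and 35.1% of all circRNA junctions. RNA binding proteins that act in circRNA formation gave 3 hosts of 10 (Dhx9, Mbnl1 and Qk) with 3 junctions and 6, 3 and 3 reads.

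A small set of members did not follow the annotated exons. The table places 22 members on the strand opposite to their host. None of these had an end on an annotated exon end, none was known and 1 (Rab3gap2, 3 reads in each library) was in all 3 libraries. They held 102 reads, with a median of 2 reads and a median span of 935 bases, and the largest was the Malat1 junction with 0, 17 and 11 reads. A further 10 members on the host strand had both ends inside 1 exon. The largest of them was that of Gm9762, with 7, 9 and 7 reads and a span of 374 bases.
Gm9762, chr3:78966402-78966775, minus strand: aacagatagagaaaaGAATTGAATGACCTG
In all 10 the exon had AG just before the acceptor and GT just after the donor, the letters of a splice site. The circRNA caller is not given, so whether it asked for these letters is not known. In 4 of the 10, at Gm26917, Ahnak and Vim, the letters around the acceptor and around the donor end matched over 5 or 6 bases. These were counted on both sides of the ends together. Among the 4 was the Vim junction with 0, 7 and 0 reads.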

How the data were processed

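The authors deposited circRNA, mRNA and lncRNA tables for 3 paired-end libraries. The circRNA table holds the deposited junction read counts and a deposited SRPBM signal, which was junction reads over 1 constant per library (11.1, 8.37 and 10.3). For mRNAs and lncRNAs the authors gave transcript read counts and FPKM values. Columns of the authors' comparisons (fold changes, p-values) were not used. The submitters' processing notes name FastQC, HISAT2, StringTie and GRCm38; the circRNA caller and the source of known circRNAs are not given in the sources used here.

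Ratios are of SRPBM, called past 2-fold above 2 or below 0.5, with exact binomial (Clopper-Pearson) 95% intervals of 2 counts. With 0 reads in 1 library the ratio was set against a floor of 3 reads. That value leaves out the counting error of the other library, so the interval limit of the listed reads stands beside it. Shares carry Wilson, sums exact Poisson and medians order-statistic intervals. All cover counting error only, since reads carry no molecular identifiers. They make no allowance for the choice of members by their ratios. With 1 library per group no test was made. Linear reads of a host are the mRNA counts summed over its transcripts, in which reads from its circular RNA cannot be told apart. Ends were matched to GENCODE M21 exons on the same strand, and junction letters came from its transcripts. All 1010 gene IDs of circRNA hosts were found there. Python 3.11.15, numpy 2.4.6, pandas 2.3.3, scipy 1.17.1 and matplotlib 3.10.9 were used. The interval code was tested on simulated data with more reads than most members had and without the smallest count of 2. It was not tested at the depth of most members.

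Named junctions were the 10 with the most reads, the 5 with the most in each library, the 3 highest and 3 lowest ratios of each pair with at least 20 reads, the 5 hosts with the most junctions, the 3 shortest and longest spans with at least 20 reads, the 5 largest without a known entry, and those of the host lists with at least 5 reads. Rab3gap2, Gm9762, Gm26917, Ahnak, Vim, Nup155 and the Tcf20 ring of exons 2 to 4 were chosen after their values were seen, as were the Ptms junctions with a stretch of identical bases. The members, rules and gene lists were chosen with earlier results of these data known. Other scalings, minimum reads, fold limits and sets of junctions were tried as alternatives.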

Additional observations from a re-analysis of the deposited data

How the results depend on the processing

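With 1 library per group nothing could be left out and compared. No paired analysis was possible because each group had 1 library and the results come from no test. Of 88 values under other settings 55 stayed close to the reported ones. Scaling to mRNA and lncRNA reads shifted the log2 ratios by -0.30 in G1, 0.04 in G2 and 0.34 in G3, and scaling to circRNA junction reads by 0.12, -0.34 and -0.46, while the counts past 2-fold moved by less than 1.5 times and the share above 2 by under 10 points. A minimum of reads moved them most. For G1 there were 88 members above 2 and 79 below 0.5 with at least 5 reads, 23 and 14 with at least 10, 3 and 6 with at least 20, and 46 and 20 where the interval held no 1. For G2 these pairs were 124 and 62, 45 and 16, 12 and 3, and 62 and 20. For G3 they were 121 and 68, 43 and 14, 12 and 0, and 36 and 33. Where the interval held no 1, in G1 more members were above than below, the opposite of the count over all members. With at least 3 reads taken as detection, 160 members were in 2 libraries and 539 in 1. With at least 5 summed reads 93 were in 1 library, and with at least 10, 60 were in 2 and 6 in 1. Hosts with 2 or more junctions fell to 60 with at least 5 summed reads. The known share was 45.3% with at least 5 and 55.8% with at least 10 summed reads. BMM-ABs held 35.5% of the reads of known junctions. The restriction to members with both ends annotated, added after the data were seen, left all of these results within 1.5 times or within their interval. Depth limits the ratios of members with few reads, and a 0 may stand for 1 read.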
